A study of Mus musculus with 8 samples.

Results

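The guanylate-binding protein genes described here are 7 mouse genes, Gbp2, Gbp2b, Gbp3, Gbp4, Gbp7, Gbp8 and Gbp9, chosen by symbol from the 15917 genes of a count table. All 7 had a row, and all 7 passed the filter on low counts. The RNA came from blood eosinophils of the C57BL/6 strain, held in culture for 18 h. E1 cells received IFN-γ and TNF-α, for which the labels give 15 ng/mL, and CN cells of the same experiment received no cytokine. E2 cells received IL-5, GM-CSF and IL-4 at 10 ng/mL with IL-33 at 30 ng/mL, and E0 cells of that second experiment received IL-5 alone at 10 ng/mL. Each of the 4 groups had 2 libraries.

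All cells share a source that limits them as a model of ordinary eosinophils. The protocol names IL-5 transgenic donors (NJ.1638), a line known for its very high number of blood eosinophils, while the genotype label of every sample reads WT. Cells were enriched by magnetic removal of CD90-positive and B220-positive cells. The labels do not say whether the 2 libraries of a group came from separate mice or cultures, so the p-values below measure the spread between these libraries, which may in part be technical. In all 4 groups replicate 1 carried Y-linked Ddx3y at 62.5 to 95.6 CPM (counts per 1000000 counts, with TMM scaling) and Xist at 0.0527 to 0.193 CPM, and replicate 2 carried Xist at 796 to 1142 CPM and no Ddx3y count. By these transcripts, the 2 libraries of a group did not come from the same mouse or from 1 shared pool of cells. A difference of sex is therefore part of the spread between replicates in every group. Library totals ran from 60809057 to 95065752 counts, and 3 counts, the limit that a count of 0 allows, came to 0.0316 to 0.0483 CPM.

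Guanylate-binding proteins are large GTPases of the dynamin superfamily. They are induced mainly through IFN-γ, whose receptor activates JAK kinases, followed downstream by the transcription factor IRF1. The proteins assemble on the vacuoles of intracellular bacteria and parasites and on bacterial surfaces, help to break these open, and feed into inflammasome activation. Several carry a C-terminal prenyl group that anchors them in membranes. In mouse, the genes lie in a cluster on chromosome 3 and another on chromosome 5. Mice without the chromosome 3 cluster are known to control Toxoplasma gondii poorly.

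Positions are from GENCODE M21 on GRCm38 (mm10), and all 7 genes are annotated as protein coding. On the plus strand of chromosome 3, Gbp7 (ENSMUSG00000040253) spans chr3:142530342-142550149, Gbp3 (ENSMUSG00000028268) chr3:142560026-142573209, Gbp2b (ENSMUSG00000040264) chr3:142594847-142619179 and Gbp2 (ENSMUSG00000028270) chr3:142620602-142638008. On the minus strand of chromosome 5, Gbp8 (ENSMUSG00000034438) spans chr5:105014150-105139540, Gbp9 (ENSMUSG00000029298) chr5:105077630-105139539 and Gbp4 (ENSMUSG00000079363) chr5:105115767-105139586. The 4 genes on chromosome 3 fit within 107.7 kb and the 3 on chromosome 5 within 125.4 kb.

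Promoters are shown for the 4 genes on chromosome 3, the only members with entries in the source of promoter windows. The members on chromosome 5 rose in E1 libraries as well, and any part of promoter sequence in the rise was not tested. The RefSeq table of promoter windows (GRCm38.p6, 250 bases before to 50 bases after each transcript start) held entries for Gbp7, Gbp3, Gbp2b and Gbp2; Gbp4, Gbp8 and Gbp9 are named only. The windows, all on the plus strand, are chr3:142530086-142530385 for Gbp7, chr3:142559794-142560093 for Gbp3, chr3:142594597-142594896 for Gbp2b and chr3:142620413-142620712 for Gbp2. Capitals mark matches on either strand to the core of an interferon-stimulated response element, which is GAAA, any 2 bases and GAAA again.
Gbp7: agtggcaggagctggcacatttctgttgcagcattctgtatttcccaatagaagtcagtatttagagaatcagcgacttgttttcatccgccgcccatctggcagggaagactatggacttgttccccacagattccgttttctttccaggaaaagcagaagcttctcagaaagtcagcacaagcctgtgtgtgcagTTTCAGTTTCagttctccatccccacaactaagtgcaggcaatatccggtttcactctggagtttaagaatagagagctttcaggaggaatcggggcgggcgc
Gbp3: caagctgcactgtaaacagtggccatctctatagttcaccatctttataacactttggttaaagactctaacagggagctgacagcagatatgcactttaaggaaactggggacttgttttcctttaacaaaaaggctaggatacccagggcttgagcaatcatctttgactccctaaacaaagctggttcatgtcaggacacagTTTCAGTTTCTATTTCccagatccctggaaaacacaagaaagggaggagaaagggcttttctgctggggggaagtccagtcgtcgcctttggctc
Gbp2b: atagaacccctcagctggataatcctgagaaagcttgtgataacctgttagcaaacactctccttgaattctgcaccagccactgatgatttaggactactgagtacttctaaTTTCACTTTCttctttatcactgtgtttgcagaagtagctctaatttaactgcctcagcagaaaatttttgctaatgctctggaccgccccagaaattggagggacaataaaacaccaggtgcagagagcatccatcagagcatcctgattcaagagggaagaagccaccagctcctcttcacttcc
Gbp2: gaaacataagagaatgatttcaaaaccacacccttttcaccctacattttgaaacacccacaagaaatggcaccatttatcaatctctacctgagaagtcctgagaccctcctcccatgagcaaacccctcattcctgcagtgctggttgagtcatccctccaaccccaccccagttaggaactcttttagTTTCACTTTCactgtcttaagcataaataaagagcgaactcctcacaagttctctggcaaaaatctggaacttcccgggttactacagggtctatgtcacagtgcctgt

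All 4 genes had the response element core in the minus-strand form, so that it reads TTTCAGTTTC in Gbp7, starting 53 bases before the RefSeq transcript start. Gbp3 had the same letters 45 bases before its start, overlapped by a second match, TTTCTATTTC, at 39 bases. Gbp2 had TTTCACTTTC 59 bases before its start, and Gbp2b had those letters farther away, at 137 bases. The Gbp2 match, at chr3:142620604-142620613, lies just inside the gene by its GENCODE start of chr3:142620602, so its place depends on the start used. A second RefSeq window of Gbp3, at chr3:142560106-142560405, held no match. Among all 32851 promoter windows of this length, 3.44% held the response element core, and 3.99% of the 27025 genes had it in any window. These are matches of letters, not measured binding sites.

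Gbp2, which coats pathogen vacuoles and works in the activation of inflammasomes, had the highest level of the 7 in E1 cells, also per exon length. It stood at 3469 and 3102 CPM in the 2 E1 libraries, against 2.46 and 2.26 CPM in the 2 CN libraries. The 2 groups were far apart, 1392-fold by the fit, with a log2 fold change of 10.44 ± 0.29 (SE; adjusted p = 1.57e-07, edgeR quasi-likelihood test with Benjamini-Hochberg adjustment over 15913 genes). Gbp2b, the gene long called Gbp1 in mouse and prenylated like Gbp2, had 273 and 267 CPM in E1 cells, against 0.601 and 0.565 CPM in CN cells. The E1 libraries agreed within a few percent, and the log2 fold change was 8.85 ± 0.19 (adjusted p = 6.55e-08, edgeR).

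**Figure D1:**
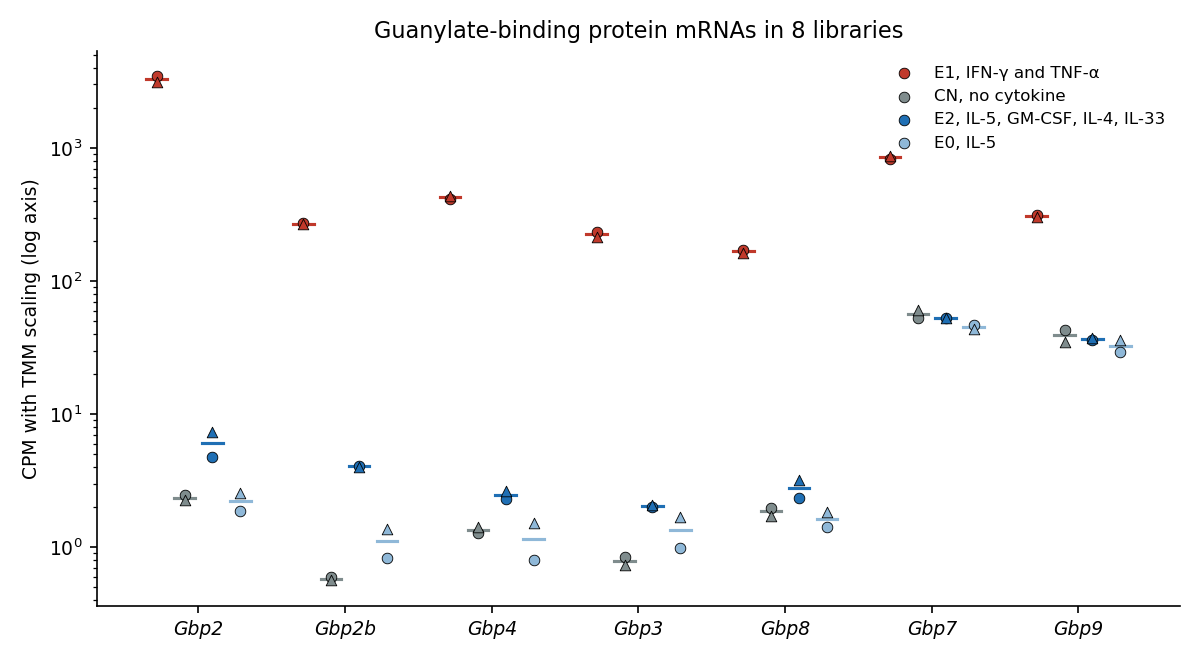
Level of each guanylate-binding protein gene in the 8 libraries, in CPM with TMM scaling on a log axis. Circles are replicate 1, triangles replicate 2 and bars the mean of the 2 libraries. The E1 libraries of Gbp2 sit at 3469 and 3102 CPM, and for every gene both E1 libraries lie above the other 6; Gbp7 and Gbp9 lie between 29.5 and 60.7 CPM in those 6, and the other 5 genes lie under 3 CPM in CN and E0 libraries.

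Gbp4, which in mouse is known to bind and restrain the interferon regulator IRF7, had 415 and 434 CPM in E1 cells, against 1.29 and 1.42 CPM in CN cells, a log2 fold change of 8.30 ± 0.22 (adjusted p = 1.39e-07, edgeR). Gbp3 lies next to Gbp2b and had 235 and 214 CPM in E1 cells, against 0.843 and 0.733 CPM in CN cells (8.15 ± 0.22, adjusted p = 1.57e-07, edgeR). Gbp8 had 171 and 163 CPM in E1 cells, against 1.99 and 1.73 CPM in CN cells (6.48 ± 0.19, adjusted p = 2.32e-07, edgeR). For these 3 genes, as for Gbp2 and Gbp2b, the CN level was under 3 CPM and the 2 groups did not come near each other.

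Gbp7 and Gbp9 differed from the others in their level without IFN-γ. Gbp7, which is known to help assemble the phagocyte oxidase on bacterial vacuoles, had 824 and 874 CPM in E1 cells, against 52.8 and 60.7 CPM in CN cells, a 15.0-fold difference (log2 3.90 ± 0.09, adjusted p = 1.01e-07, edgeR). Gbp9 had 312 and 301 CPM in E1 cells, against 43.3 and 35.0 CPM in CN cells, a 7.83-fold difference (log2 2.97 ± 0.13, adjusted p = 1.52e-06, edgeR). These were the smallest fold changes of the family, on the highest CN levels.

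All 7 of 7 genes were thus higher in E1 than in CN cells by the test, in a comparison where 9.19% of the 15913 genes tested were called higher and 8.08% lower. Both E1 libraries lay above both CN libraries for all 7, as they did for 26.5% of all genes. Ranked by log2 fold change, Gbp2 was the 9th gene of the table, Gbp2b the 19th, Gbp4 the 24th, Gbp3 the 26th, Gbp8 the 44th, Gbp7 the 177th and Gbp9 the 266th. The median over all genes was a log2 fold change of -0.01. These are bulk libraries, in which fewer cells of a type and less RNA per cell cannot be told apart.

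**Figure D2:**
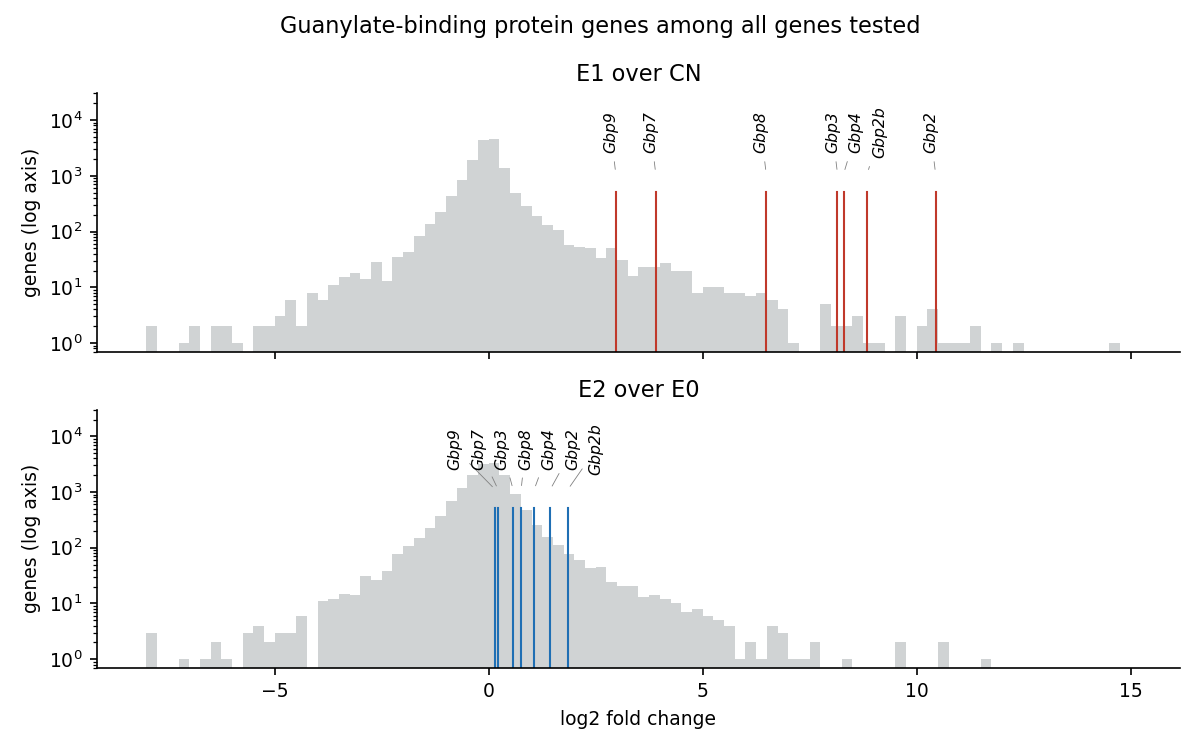
Number of genes (log axis) by log2 fold change for all 15913 genes tested, E1 over CN above and E2 over E0 below, with lines at the 7 guanylate-binding protein genes. In E1 over CN the 7 lie between 2.97 and 10.44, in the right tail. In E2 over E0 they run from 0.15 for Gbp9, ranked 5504th and within the bulk of the distribution, to 1.85 for Gbp2b, ranked 367th.

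Levels were compared between genes as RPKM, the CPM divided by the annotated exon length in kilobases. In E1 cells the order was Gbp2 at 1306 ± 103 RPKM (SD, n = 2, as for all levels below), Gbp7 at 151 ± 6.32, Gbp2b at 95.6 ± 1.64, Gbp3 at 68.9 ± 4.54, Gbp9 at 59.3 ± 1.60, Gbp4 at 56.7 ± 1.79 and Gbp8 at 48.5 ± 1.84 RPKM, and no 2 neighbours overlapped. In CN cells the order was another one. Gbp7 led at 10.1 ± 0.996 RPKM, followed by Gbp9 at 7.57 ± 1.13 RPKM. Gbp2 came next at 0.937 ± 0.0553 RPKM, and Gbp8, Gbp3, Gbp2b and Gbp4 ran from 0.541 ± 0.0538 down to 0.180 ± 0.0125 RPKM. The place of Gbp4 depends on the length used. With the longest transcript of the consensus coding set in place of all exons, Gbp4 came to 93.6 ± 2.96 RPKM in E1 cells, where it overlapped Gbp2b, and to 0.298 ± 0.0206 RPKM in CN cells, above Gbp2b; Gbp9 then overlapped Gbp8 in E1 cells and Gbp7 in CN cells.

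The order in E2 cells was Gbp7 at 9.39 ± 0.0281 RPKM, Gbp9 at 7.07 ± 0.139, Gbp2 at 2.42 ± 0.726, Gbp2b at 1.45 ± 0.0165, Gbp8 at 0.805 ± 0.171, Gbp3 at 0.624 ± 0.0140 and Gbp4 at 0.333 ± 0.0344 RPKM. In E0 cells it was Gbp7 at 8.05 ± 0.342 RPKM, Gbp9 at 6.34 ± 0.906 and Gbp2 at 0.886 ± 0.195, then Gbp8, Gbp3 and Gbp2b between 0.473 ± 0.0866 and 0.393 ± 0.137, and Gbp4 at 0.155 ± 0.0671 RPKM. In E0 cells Gbp8 overlapped Gbp3, and Gbp3 overlapped Gbp2b. Gbp7 and Gbp9 were the first and second in CN, E2 and E0 cells alike.

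The family's make-up changed as its sum did. The 7 genes together made up 0.527% and 0.506% of all counts in E1 libraries, against 0.0103% and 0.0102% in CN libraries. Their summed level was 5700 and 5355 CPM in E1 libraries, against 103 and 102 CPM in CN libraries, 53.8 times higher by the group means. Gbp2 gave 74.1% and 72.0% of the family's summed RPKM in E1 libraries, against 4.89% and 4.58% in CN libraries. Gbp7 gave 7.89% and 9.09% in E1 libraries, against 47.1% and 55.2% in CN libraries, and Gbp9 gave 3.25% and 3.39% in E1 libraries, against 41.9% and 34.5% in CN libraries. Shares have to sum to the whole, so the fall of these 2 shares goes with the rise of Gbp2; the levels of Gbp7 and Gbp9 themselves rose. Within a library, Gbp2 had 11.1 and 10.3 times the CPM of Gbp9 in E1 cells, against 0.0568 and 0.0645 times in CN cells.

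**Figure D3:**
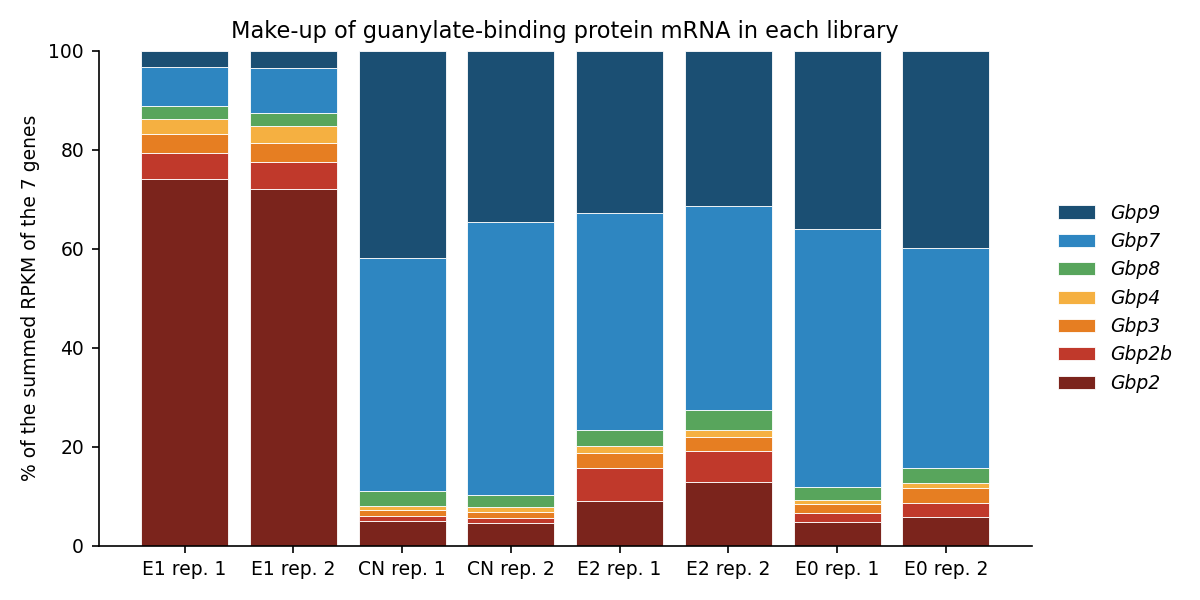
Share of each gene in the summed RPKM of the 7 guanylate-binding protein genes, in percent, for each library. Gbp2 takes 74.1% and 72.0% in the 2 E1 libraries and at most 12.8% in any other library, where Gbp7 and Gbp9 take most of the bar.

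In the second experiment, 4 of the 7 genes rose in E2 cells relative to E0 cells, in a comparison where 17.0% of all genes were called higher and 18.5% lower. Gbp2b changed most. It had 4.12 and 4.05 CPM in E2 cells, against 0.837 and 1.38 CPM in E0 cells, a 3.60-fold difference (log2 1.85 ± 0.17, adjusted p = 0.000134, edgeR). Gbp2 had 4.80 and 7.38 CPM in E2 cells, against 1.88 and 2.58 CPM in E0 cells, a 2.70-fold difference (1.44 ± 0.22, adjusted p = 0.00163, edgeR). Neither gene's E2 libraries overlapped its E0 libraries, and both genes stayed under 10 CPM in E2 cells.

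Gbp4 had 2.31 and 2.67 CPM in E2 cells, against 0.805 and 1.52 CPM in E0 cells (1.06 ± 0.22, adjusted p = 0.00687, edgeR). Gbp8 had 2.36 and 3.19 CPM in E2 cells, against 1.42 and 1.84 CPM in E0 cells (0.76 ± 0.18, adjusted p = 0.0116, edgeR). The call of Gbp8 was lost without E0 replicate 1 (adjusted p = 0.0712) and without E2 replicate 2 (adjusted p = 0.0740). Gbp3, at 2.01 and 2.07 CPM in E2 cells against 0.998 and 1.70 CPM in E0 cells, missed the threshold (0.57 ± 0.20, adjusted p = 0.0592, edgeR), although its libraries did not overlap. It passed without E0 replicate 2, with a log2 fold change of 1.03 (adjusted p = 0.00307).

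Gbp7 had 52.6 and 52.8 CPM in E2 cells, against 46.6 and 43.9 CPM in E0 cells (0.22 ± 0.08, adjusted p = 0.0722, edgeR). Gbp9 had 36.0 and 37.1 CPM in E2 cells, against 29.5 and 36.1 CPM in E0 cells (0.15 ± 0.12, adjusted p = 0.346, edgeR). Neither of these 2 genes passed the test. With the replicate number as a block, which here follows sex, Gbp3 (0.58, adjusted p = 0.0111, edgeR) and Gbp7 (0.22, adjusted p = 0.00551) were called as well. That fit left 2 residual degrees of freedom. It called 8514 genes of the whole table in either direction, against 5655 without the block. By CPM, Gbp9 was the one gene whose E2 and E0 libraries overlapped. For the other 6 both E2 libraries lay above both E0 libraries, as for 35.9% of all genes. By rank of the log2 fold change Gbp2b was the 367th gene and Gbp9 the 5504th. The family's summed level was 104 and 109 CPM in E2 libraries, against 82.0 and 89.0 CPM in E0 libraries, 1.25 times higher by the group means.

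**Figure D4:**
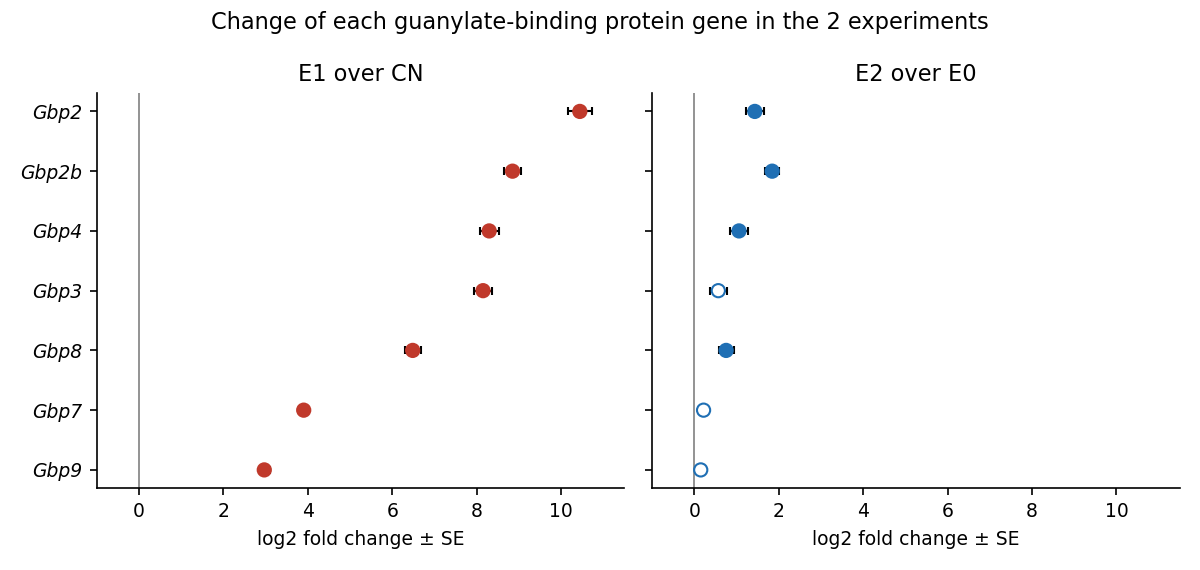
Log2 fold change with its SE for each guanylate-binding protein gene, E1 over CN on the left and E2 over E0 on the right, on the same scale. Filled points passed an adjusted p of 0.05 and open points did not. All 7 genes lie at 2.97 or more on the left and at 1.85 or less on the right.

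The 2 responses were compared directly, each against the control of its own experiment. The E2 response, E2 over E0, was smaller than the E1 response, E1 over CN, for all 7 genes, in a test where 14.0% of all genes were called lower. The difference of log2 fold changes was -9.01 ± 0.33 for Gbp2 (adjusted p = 1.36e-06, edgeR) and -2.81 ± 0.17 for Gbp9 (adjusted p = 1.68e-05, edgeR). It was -7.58 ± 0.29 for Gbp3, -7.24 ± 0.31 for Gbp4, -7.00 ± 0.26 for Gbp2b, -5.73 ± 0.25 for Gbp8 and -3.68 ± 0.12 for Gbp7. The order of the genes also differed between the responses: Gbp2 led in E1 over CN and Gbp2b in E2 over E0. The difference between these 2 genes in E2 over E0 was not tested.

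Levels were also set side by side across the experiments, where the cytokines and the experiment cannot be told apart and the libraries are those of the comparisons above. All 7 genes were lower in E2 than in E1 cells, in a comparison where 26.6% of all genes were called lower, from 540-fold for Gbp2 (log2 -9.08 ± 0.27) to 8.39-fold for Gbp9 (-3.07 ± 0.13). Between E0 and CN cells the differences were small. Gbp2b was higher in E0 cells (0.96 ± 0.21, adjusted p = 0.0128, edgeR), as was Gbp3 (0.79 ± 0.22, adjusted p = 0.0338), where 13.5% of all genes were called higher. Gbp7 was lower in E0 cells (-0.33 ± 0.08, adjusted p = 0.0238), where 11.9% of all genes were called lower. These 3 calls were not stable. Gbp2b lost its call without CN replicate 2 (adjusted p = 0.0598) and without E0 replicate 2 (0.145). Gbp3 lost it without CN replicate 1, CN replicate 2, E0 replicate 2, E2 replicate 1 or E2 replicate 2 (adjusted p 0.0586 to 0.310), with a log2 fold change of 0.34 without E0 replicate 2. Gbp7 lost it without CN replicate 2, E0 replicate 1, E0 replicate 2 or E2 replicate 1 (0.0506 to 0.142). Gbp4, at -0.18 with all libraries, was called lower without E0 replicate 2 (-0.75, adjusted p = 0.0244).

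Genes around the 2 clusters were read from the same fit, taking the 3 nearest genes tested on each side, a rule set after the member values were known. On chromosome 3 the nearest gene before Gbp7 was Pdlim5, 134.6 kb away, with 87.4 and 80.0 CPM in E1 cells, against 85.0 and 79.7 CPM in CN cells (0.02 ± 0.07, adjusted p = 0.868, edgeR). On the other side Kyat3, 63.0 kb beyond Gbp2, stood at -0.26 ± 0.55 (adjusted p = 0.809, edgeR). Its level was low, at 0.252 ± 0.0666 CPM in E1 cells and 0.299 ± 0.219 CPM in CN cells. Farther out, Unc5c, 695 kb before Gbp7, fell (-1.44 ± 0.21, adjusted p = 0.00199, edgeR). Rap1gds1, 3455 kb before Gbp7, rose by 0.26 ± 0.06 (adjusted p = 0.0266, edgeR). Gtf2b and Pkn2, 127 and 153 kb beyond Gbp2, were not called, at 0.24 and 0.20. On chromosome 5 the gene before Gbp8, the ABC transporter gene Abcg3, 31.4 kb away, stood at 0.00 ± 0.14 (adjusted p = 0.991), and Gm24097 and Zfp951 at 0.08 and 0.06 were not called.

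On the other side of the chromosome 5 cluster lie annotated relatives. Gm43302, 75.3 kb beyond Gbp4 and annotated as protein coding, had 80.9 and 87.1 CPM in E1 cells, against 0.137 and 0.0841 CPM in CN cells (9.53 ± 0.29, adjusted p = 2.59e-07, edgeR). Gbp11, annotated as a polymorphic pseudogene, had 7.46 and 9.07 CPM in E1 cells, against 0.116 and 0.120 CPM in CN cells (6.11 ± 0.38, adjusted p = 1.52e-05). Lrrc8b, the next gene, was not called (1.04 ± 0.40, adjusted p = 0.120). Gbp5, Gbp6 and Gbp10, other mouse genes of the family, were not analysed here.

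**Figure D5:**
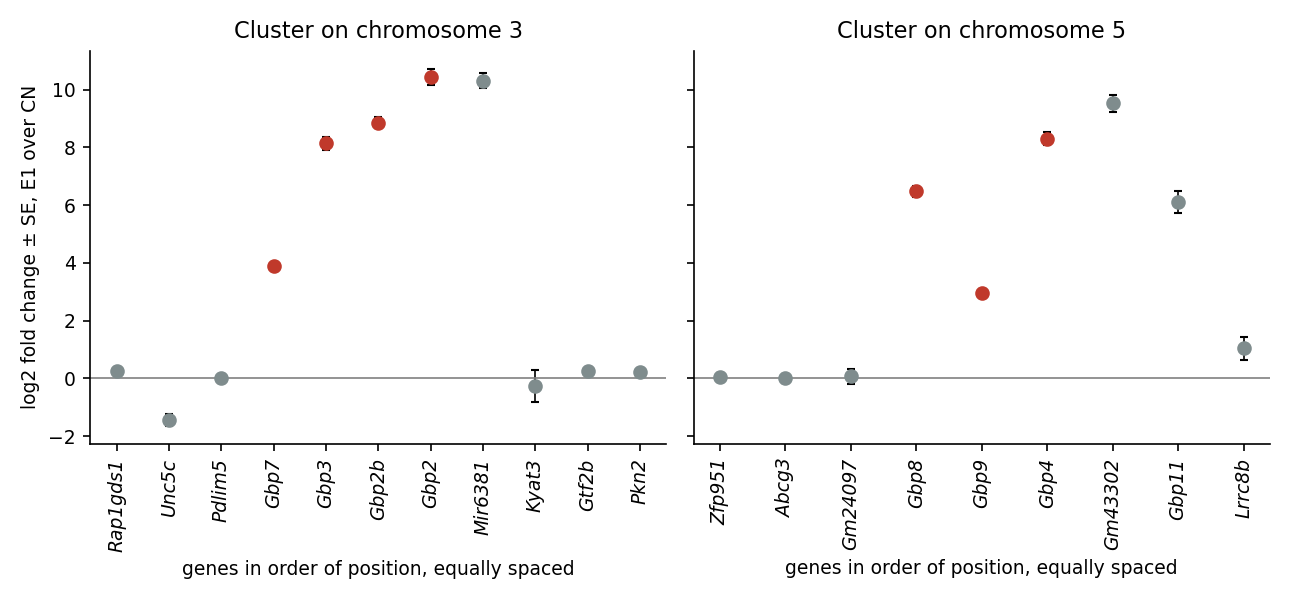
Log2 fold change with its SE, E1 over CN, for the guanylate-binding protein genes (red) and the nearest genes tested (grey), in order of position at equal spacing. On chromosome 3 the members stand between 3.90 and 10.44 and the flanking genes between -1.44 and 0.26, with Mir6381 at 10.31 inside Gbp2; on chromosome 5 Gm43302 at 9.53 and Gbp11 at 6.11 stand with the members.

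Some of these genes share sequence, and how reads that hit several genes were counted is not given in the sources used here. Of all 50-base windows of a gene's annotated transcripts, 18.1% of those of Gbp8 also occurred in another gene, 12.7% of those of Gbp7 (mostly in the processed pseudogene Gm43802), 8.05% of those of Gbp9, 7.78% of those of Gbp4, 3.75% of those of Gbp3, 2.03% of those of Gbp2 and 1.84% of those of Gbp2b. At 100 bases the share was 4.39% for Gbp8, 10.0% for Gbp7, 1.65% for Gbp9, 1.64% for Gbp4, 0.694% for Gbp3 and 0 for Gbp2 and Gbp2b. Gbp2 and Gbp2b shared their windows with each other, and Gbp9 and Gbp4 shared 2.97% and 3.09% of theirs with Gm43302. Gbp4, Gbp8 and Gbp9 also overlap in 60 to 61 exonic bases on the same strand. Mir6381, annotated on the strand opposite to Gbp2 with 24 bases of overlap with its exons, had 166 ± 9.01 CPM in E1 cells and 0.127 ± 0.0438 CPM in CN cells (10.31 ± 0.26, adjusted p = 1.18e-07, edgeR). The kit keeps strand, but the strand setting of the counting is not stated, so reads of Mir6381 and of Gbp2 cannot be told apart.

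The 10 other genes whose level followed the family most closely were taken by Pearson's r over the 8 libraries with the mean log2 CPM of the 7 genes. Among 9164 genes with at least 10 CPM in a group, 38 reached an r of 0.99. The libraries share the design, and the 2 E1 libraries stand apart from the other 6, so r mainly sets E1 against the rest. Ifi47, an interferon-inducible GTPase, came first (r = 0.9996), with 731 and 611 CPM in E1 cells, against 2.57 and 1.92 CPM in CN cells. Also among the 10 were Zfp281 (0.9994), Tgtp2 (0.9977), Ifi27 (0.9976), Irgm2 (0.9975), Igtp (0.9975), Nlrc5 (0.9972) and Gm12250 (0.9971). Zfp281, a zinc-finger transcription factor, shows that r takes no account of size: it had 112 and 109 CPM in E1 cells, against 59.4 and 59.9 CPM in CN cells (0.88 ± 0.06). Nlrc5, the activator of MHC class I genes, had 722 and 726 CPM in E1 cells, against 24.7 and 25.4 CPM in CN cells, and was also higher in E2 than in E0 cells (1.02 ± 0.08). Irgm2 overlaps Igtp, so their counts may share reads. Among the 7 genes, r with the family mean was lowest for Gbp2b, at 0.985.

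The other interferon-inducible GTPases of mouse were taken as the immunity-related GTPases with the very large inducible GTPases and the Mx genes. Several immunity-related GTPases act on the same pathogen vacuoles. Of 13 on the list, 12 were tested, and all 12 rose in E1 cells, with a median log2 fold change of 5.40 against -0.01 over all genes. Igtp had 1041 ± 158 CPM in E1 cells and 15.0 ± 2.04 CPM in CN cells (6.11 ± 0.16). The near-identical pair Tgtp1 and Tgtp2, whose counts may share reads, stood at 11.94 and 11.47. Iigp1 had 37.7 ± 1.29 CPM in E1 cells and no count in CN cells, at least 2236-fold higher than the 3 counts over both CN libraries that a count of 0 allows. In E2 cells 4 of the 12 rose, among them Igtp (0.64 ± 0.13) and Irgm2 (0.53 ± 0.10). Of the others 3 fell, among them 9930111J21Rik2 (-0.57 ± 0.11), and 5 were not called. The median was 0.87, and uncalled genes with few counts lay above it. Among these, Iigp1 (2.80) had 17 counts in E2 and 2 in E0 cells, and Gm4951 (3.16) had 2 and 0. Irgm1, also uncalled, stood at -0.03 with 13.3 ± 0.719 CPM in E2 cells. The difference of responses was called lower for 11 of the 12, and for 14.0% of all genes. For this list and those below, 9.19% of all genes were called higher and 8.08% lower in E1 over CN. In E2 over E0 these shares were 17.0% and 18.5%. Counts near these shares do not set a list apart from all genes.

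Of the IFN-γ receptor and JAK-STAT list, 8 of 14 genes rose in E1 cells, 1 fell and 5 were not called, with a median of 0.72. Irf1, a transcription factor of the pathway that acts at guanylate-binding protein promoters, had 1427 ± 144 CPM in E1 cells and 76.1 ± 0.411 CPM in CN cells (4.23 ± 0.10), and Irf8 rose by 2.45 ± 0.21. Socs3, a feedback inhibitor, was the gene that fell (-0.54 ± 0.09). Both receptor subunits, Ifngr1 and Ifngr2, were among the genes not called.

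In E2 cells 8 of these 14 genes rose and 4 fell, with a median of 0.44. Irf1 had 75.6 ± 4.38 CPM in E2 cells and 56.8 ± 2.60 CPM in E0 cells (0.41 ± 0.09, adjusted p = 0.00958, edgeR). The feedback inhibitors Socs1 (2.54 ± 0.16) and Socs3 (1.49 ± 0.09) rose most, followed by Irf8 (0.74 ± 0.20). Jak1 (-0.46 ± 0.08), Irf2 (-0.41 ± 0.06) and Ifngr1 (-0.30 ± 0.08) fell. The other receptor gene, Ifngr2, rose by 0.57 ± 0.08, with 199 ± 12.5 CPM in E2 cells and 134 ± 11.7 CPM in E0 cells. Socs1 also rose in E1 cells, by 2.08 ± 0.16.

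The TNF receptor and NF-κB list had 7 of 13 genes higher in E1 cells and 6 not called, with a median of 0.30. The count of lower genes was 0 by edgeR, at an unadjusted p under 0.05 and by DESeq2. Nfkbia, the inhibitor that NF-κB induces, had 275 ± 2.18 CPM in E1 cells and 37.7 ± 1.06 CPM in CN cells (2.86 ± 0.10). The receptor gene Tnfrsf1a rose by 1.04 ± 0.18 and Tnfaip3 by 0.65 ± 0.09. In E2 cells, which received no TNF-α, 5 rose and 1 fell, with a median of 0.19. Nfkbia had 371 ± 0.920 CPM in E2 cells and 36.6 ± 5.73 CPM in E0 cells (3.34 ± 0.10), and Tnfaip3 (1.42 ± 0.09) and Nfkb1 (1.03 ± 0.07) rose as well, while Rela fell (-0.22 ± 0.06).

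The receptors and JAK-STAT genes of the cytokines given to E2 cells went both ways in those cells. Of 13, 7 rose and 4 fell in E2 cells, with a median of 0.27. Il2rg, the common γ chain of the IL-4 receptor, had 189 ± 4.02 CPM in E2 cells and 29.8 ± 1.22 CPM in E0 cells (2.66 ± 0.10), and Il4ra rose by 1.69 ± 0.09 and Il1rap by 0.66 ± 0.10. Stat6 (-0.68 ± 0.10), Stat5b (-0.60 ± 0.07) and Csf2rb (-0.44 ± 0.09) fell. In E1 cells 4 rose, led by Il2rg (2.81 ± 0.10), Jak3 (2.25 ± 0.12) and Tyk2 (0.50 ± 0.07). Il1rap (-0.57 ± 0.10) and Il1rl1 (-0.49 ± 0.09) fell in E1 cells, and the median was 0.07.

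Some of the inflammasome and pyroptosis genes act downstream of guanylate-binding proteins. In E1 cells 7 of 13 rose, with a median of 0.69. The count of lower genes was 0 by edgeR and by DESeq2, and 1 at an unadjusted p under 0.05. The nucleic acid sensor gene Zbp1 had 691 ± 69.7 CPM in E1 cells and 17.2 ± 1.11 CPM in CN cells (5.33 ± 0.10). Casp1 rose by 2.95 ± 0.18, and Casp4, which encodes the protease that senses lipopolysaccharide, by 2.87 ± 0.20. In E2 cells 7 rose, with a median of 0.27 over the 13, and among these Zbp1 (2.49 ± 0.09), Il1b (2.29 ± 0.16) and Casp4 (1.94 ± 0.20) rose most. The cytokine gene Il18 fell (-2.92 ± 0.59), at 0.0883 ± 0.0751 CPM in E2 cells and 0.659 ± 0.181 CPM in E0 cells.

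The remaining lists hold genes that act with guanylate-binding proteins or resemble them. Of 13 ubiquitin-like conjugation genes and ubiquitin adaptors, which place the proteins on vacuoles, Trim21 rose in E1 cells (2.76 ± 0.12) and 12 were not called, with a median of 0.14. In E2 cells 3 of the 13 fell, Gabarapl1 (-1.12 ± 0.12), Map1lc3b (-0.75 ± 0.11) and Gabarapl2 (-0.27 ± 0.08), where 18.5% of all genes were called lower. The count of higher genes there was 0 by edgeR, and 1 both at an unadjusted p under 0.05 and by DESeq2. Of 6 genes of protein prenylation, 0 were called in E1 cells by edgeR or DESeq2, and 1 had an unadjusted p under 0.05 (median 0.12); Icmt stood at 0.21 and Fnta at 0.04. In E2 cells Zmpste24 was the 1 called gene of this list (0.56 ± 0.11). Of 8 atlastins and dynamin-related GTPases, the structural relatives of the family, 0 were called in E1 cells by edgeR, at an unadjusted p under 0.05 or by DESeq2 (median -0.07); Dnm2 stood at -0.12 and Atl3 at 0.01. In E2 cells 2 of the 8 rose, Dnm1l (0.82 ± 0.16) and Atl2 (0.38 ± 0.10), where 17.0% of all genes were called higher.

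The labelled cell type was checked against marker lists. All 10 eosinophil markers were measured in every group. Ccr3, the eotaxin receptor, had 2030 ± 75.1 CPM in E1, 2077 ± 27.5 in CN, 1254 ± 89.2 in E2 and 2576 ± 20.6 CPM in E0 cells, and Siglecf had 744 ± 60.2, 971 ± 47.7, 919 ± 26.2 and 759 ± 2.06 CPM in the same groups. Summed over the list, eosinophil markers ranged from 5584 to 6381 CPM in E1 libraries, against 7168 to 7397 in CN libraries, and from 4135 to 4176 CPM in E2 libraries, against 6551 to 6643 in E0 libraries. In E2 cells 8 of the 10 fell and Siglecf rose. The largest falls were those of Ear1 (-2.68 ± 0.51) and Prg3 (-2.29 ± 0.37). Ear1 had 21.7 and 6.96 CPM in E2 libraries, against 125 and 59.7 CPM in E0 libraries, so its replicates differed widely. In E1 cells 2 fell, and the count of higher genes was 0 by edgeR, at an unadjusted p under 0.05 and by DESeq2.

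The summed level of macrophage, monocyte and dendritic cell markers was higher in E1 and in E2 libraries. Over 12 of 13 markers the sums ranged from 6547 to 7051 CPM in E1 libraries, against 2762 to 3085 in CN libraries, and 5 rose (Csf1r, Cd14, Ly6c2, Flt3 and Zbtb46) while 2 fell. Ly6c2 alone had 4214 and 3784 CPM in E1 libraries, against 92.8 and 105 CPM in CN libraries. Without it, a choice made after its values were seen, the sums were 2837 and 2763 CPM in E1 libraries, against 2992 and 2657 CPM in CN libraries, and the groups overlapped. In E2 libraries the full sums ranged from 3776 to 3944 CPM, against 2778 to 2783 in E0 libraries, with 5 higher and 6 lower, and without Ly6c2 from 3760 to 3924 CPM, against 2730 to 2740 in E0 libraries. Summed neutrophil markers, 10 of 11, were lower, at 1311 to 1773 CPM in E1 libraries, against 2543 to 2929 in CN libraries, where 5 fell and Ly6g rose (3.21 ± 0.12). They ran from 923 to 1311 CPM in E2 libraries, against 2688 to 3338 in E0 libraries, and 4 of the 10 fell. The lists for B cells (28.4 to 55.9 CPM over all libraries), NK cells (6.26 to 24.0), basophils and mast cells (11.9 to 28.5) and the 4 T cell markers tested (15.8 to 19.6) stayed low. Platelet and erythroid markers ran from 204 to 277 CPM, of which Itga2b alone gave 200 to 252 CPM. Pf4, Ppbp and Gp9 of that list were not tested. No marker tested was at 0 in both libraries of any group. The part of these cell types in the guanylate-binding protein levels was not tested.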

How the data were processed

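The authors deposited raw counts of reads per Ensembl gene, with no normalization, for 8 libraries made with a stranded mRNA kit, per the labels' protocols. STAR, featureCounts and mm10 are named in the submitters' processing notes; the sources used here do not give versions, annotation or strand setting. In all 15918 rows were read. A row without a name held the total of each column (100% of the counts of all genes) and was dropped, which left 15917 genes. Of their IDs, 15730 matched a symbol and 187 did not.

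Groups and replicates are those of the labels. Counts were fitted with edgeR 4.0.16 (R 4.3.3) after TMM scaling and its default expression filter, which removed 4 genes. All 8 libraries entered with a mean for each group (4 residual degrees of freedom). Tests were two-sided quasi-likelihood F tests. P-values were adjusted by Benjamini-Hochberg over 15913 genes and called below 0.05. SEs are the log2 fold change divided by the square root of F. CPM are TMM-scaled. RPKM uses summed exon length from GENCODE M21. The limit of 3 counts covers counting error only. No 2 replicates were the same library: the chi-square per degree of freedom between replicates was 40.1 to 92.1. The fit was tested on simulated data.

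The 7 members and the gene lists were chosen with earlier results of these data known, so list counts are descriptions. From each list the text names up to 3 called genes each way with the largest change and at least 10 CPM in the higher group, or where none was called the 2 of highest level. Socs1 and Igtp in E1 cells, Irf1 in E2 cells, Ifngr2, Il18 and the marker genes lie outside this rule and were named after their values were seen. The 10 genes of like pattern were those with the highest r; some genes that these rules name are not reported here. Alternatives were DESeq2 1.42.0 size factors and its Wald test, library totals, no filter, a minimum of 1 CPM in 2 libraries, a replicate block, the 4 libraries of a comparison alone, leaving out each library and, chosen after seeing the data, the longest transcript of the consensus coding set as gene length and a marker sum without Ly6c2.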

Additional observations from a re-analysis of the deposited data

How the results depend on the processing

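Across 14 or 15 alternatives no guanylate-binding protein gene's called change turned its direction, and all 7 genes stayed called higher in E1 than in CN cells, lower in the difference of responses and lower in E2 than in E1 cells under every one. Gbp2 ran from 10.35 to 10.52 and Gbp9 from 2.82 to 3.14 on the log2 scale in E1 over CN. Of 105 values for E2 over E0, 97 kept their side of the threshold, 2 lost and 6 gained a call; Gbp3 passed with the DESeq2 Wald test (adjusted p = 0.00867), and Gbp7 in the fit of those 4 libraries alone (0.0403) and without CN replicate 2 (0.0490). Of 98 values for E0 over CN, 84 kept their side, 12 lost and 2 gained a call, and Gbp7 was also lost under library totals (0.0516). Libraries with the same number share the sex read from Ddx3y and Xist, but the labels tie the number to no animal, batch or day, and a comparison has 2 pairs. Deviations from the group means correlated most within an experiment, at 0.499 between CN and E1 and 0.586 between E0 and E2. Between groups of different experiments they correlated at 0.115 to 0.303. This is a hint of pairing from the data and not from the design, and the main tests do not use it. A replicate block within each experiment called 5521 genes in E1 over CN, against 2749 without it, 8514 against 5655 in E2 over E0, 6821 against 4018 in the difference of responses and 7476 against 4038 in E0 over CN. With the block Gbp3 (0.58, adjusted p = 0.0111) and Gbp7 (0.22, 0.00551) were called in E2 over E0, and Gbp9 in E0 over CN (-0.25, 0.0243). Leaving out 1 library gave 1904 to 2484 genes called in E1 over CN, 3334 to 5929 in E2 over E0, 2715 to 3768 in the difference of responses and 2235 to 4274 in E0 over CN, where 0 to 2 of the 7 genes were called higher. With 1 library left in a group, it is assumed to vary like the other groups. Scaling by library totals alone made 38.62% of the E1 over CN calls higher in place of 53.22%, with the median of all genes at -0.11, and moved the higher share to 66.85% from 53.02% in E0 over CN and to 63.60% from 50.64% in E2 over E1, where the median went to 0.16. The CN and E0 levels of 5 genes under 3 CPM limit the precision of their fold changes.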
